A study of Rattus norvegicus with 320 samples.

Results

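The miR-143 and miR-145 rows are 4 of the 616 rows of a miRNA count table from rat organs, namely rno-miR-143-3p, rno-miR-143-5p, rno-miR-145-5p and rno-miR-145-3p. They were chosen by name alone: every row that carries miR-143 or miR-145 with any arm suffix was taken, and no measured value entered the choice. All 4 rows were found in the table and all 4 were tested, since no filter on low counts was applied. The table holds small RNA libraries of Fisher 344 rats of both sexes, killed at 2, 6, 21 or 104 weeks of age; the labels name no treatment. Each of 32 rats, 4 per sex and age, gave 10 organs: uterus in females or testis in males, and lung, heart, thymus, spleen, skeletal muscle (called muscle below), liver, kidney, adrenal and brain in both. This makes 80 groups of 4 samples and 320 samples, with 32 samples per organ and 16 of testis and of uterus. A sample named as spleen from a 104-week female and one named as brain from a 6-week male were removed by the study. They had grouped with uterus samples and not with their organ, and the other samples are used below. RNA came from ground organ tissue, so each value is a mean over the cell types of that tissue, and a change in the number of cells of a type and a change in RNA per cell cannot be told apart.

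MicroRNAs are short RNAs that are cut from a hairpin precursor and guide the Argonaute proteins to messenger RNAs with a matching site. Bases 2 to 8 of the miRNA, the seed, do most of the target recognition. Either arm of the hairpin can be kept, and the suffixes 5p and 3p name the arm. miR-143 and miR-145 lie beside each other in the genome and are transcribed together. They are best known from vascular and visceral smooth muscle, where serum response factor and its partner myocardin drive them and where they favour the contractile state of the cell. Fibroblasts and related mesenchymal cells also express them.

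The mature sequences are shown because the results compare the 2 hairpins and the 2 arms of each. The sequences and positions are those of RefSeq on the rat build GRCr8, all 4 matched by name and sequence, and the seed is in capitals.
miR-143-3p: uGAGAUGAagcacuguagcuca
miR-143-5p: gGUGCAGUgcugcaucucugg
miR-145-5p: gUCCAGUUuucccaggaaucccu
miR-145-3p: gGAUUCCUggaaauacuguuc

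The 4 seeds differ from each other, and none of them occurs in another of the 616 rows. The miRNAs are 21 to 23 nt long, so levels in CPM (a miRNA's count per 1000000 counts of its library) need no correction for length. The study used no spike-in controls, so how well each sequence enters a library was not measured. Folds between different miRNAs or arms below are therefore folds of counts. All 4 lie on the minus strand of chromosome 18. miR-143-5p (chr18:57371408-57371428) and miR-143-3p (chr18:57371373-57371394) are arms of the hairpin of the gene Mir143. miR-145-5p (chr18:57370033-57370055) and miR-145-3p (chr18:57369997-57370017) are arms of the hairpin of Mir145. The distance between the mature miR-143-3p and the mature miR-145-5p is 1317 bases.

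Library totals ranged from 315550 to 10571766 counts, with a median of 2848155. Replicate samples differed from each other by more than counting error in every pair, and no pair of libraries held identical values. As a check of the organ labels, 8 marker miRNAs were followed, and 7 had their highest mean CPM in the expected organ; miR-192-5p, taken for kidney, ranked kidney at place 2. The 8 spleen libraries of week 2 had a low RNA integrity number, as the methods state. The libraries were sequenced in 8 lanes, and lanes are taken up below beside the results they move with.

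The members were present at very different depths. rno-miR-143-3p was the second most abundant of the 616 miRNAs by mean CPM, at rank 2, with a mean of 392328 counts per library and at least 9704 in each. rno-miR-145-5p was at rank 74 with a mean of 3532 counts, rno-miR-145-3p at rank 84 with 2799 counts, and rno-miR-143-5p at rank 275 with 141.3 counts and as few as 3 in a library. Counting error is therefore small for the first 3 and larger for miR-143-5p. The mean CPM of miR-143-3p was 109 times that of miR-145-5p, 141 times that of miR-145-3p and 2919 times that of its own partner arm. Both arms of miR-145 thus had counts of a like size, while the 5p arm of miR-143 had few.

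miR-143-3p was highest in uterus, where it took 40.5% ± 8.97 (SD, n = 16) of all miRNA counts. Its CPM in the uterus samples ran from 239059 through a median of 441259 to 512986. Lung followed with 135196, 199870 and 272296 CPM (lowest, median and highest of 32 samples), and heart with 122047, 163853 and 236680. These are mean shares of 19.9% and 16.7% of the counts, and in no other organ was the mean share above 11.5%.

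The next 3 organs lay close together. Thymus had a mean of 114632 CPM ± 26366 (SD, n = 32), testis of 111679 ± 52637 (n = 16) and spleen of 107363 ± 18129 (n = 31). Testis had the widest spread of the 3, from 17451 to 219212, and its 4 lowest samples were those of week 104. The remaining 5 organs were lower. The means were 49772 CPM ± 12739 in muscle, 44055 ± 10913 in liver, 42861 ± 6482 in kidney, 31169 ± 5508 in adrenal (each n = 32) and 30535 ± 5768 in brain (n = 31). No sample of these 5 organs reached the lowest uterus, lung or heart sample. miR-143-3p was the most abundant miRNA of uterus, lung, heart and spleen by mean CPM, and was at rank 7 even in brain.

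miR-145-5p, whose seed differs from that of its neighbour, was also highest in uterus. Its CPM there ran from 1316 through a median of 3919 to 5168 in 16 samples. By mean, spleen came next with 1637 ± 735.4 (n = 31), beside lung with 1493 ± 326.0 and heart with 1490 ± 374.3 (each n = 32). By median, spleen at 1382 lay below lung at 1429 and heart at 1451, and its highest sample had 3894. The lowest means were 291.9 ± 73.61 in adrenal (n = 32) and 289.9 ± 88.93 in brain (n = 31). Spleen thus stood higher in the order of miR-145-5p than in that of miR-143-3p, and thymus lower, at rank 8 with 495.5 ± 229.1 (n = 32) against rank 4.

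miR-145-3p, the opposite arm of the same hairpin, had a mean of 3091 CPM ± 1038 in uterus (n = 16), 1304 ± 449.9 in heart and 1274 ± 436.2 in lung (each n = 32), and was lowest in brain with 174.7 ± 50.64 (n = 31). miR-143-5p had a mean of 175.5 CPM ± 49.06 in uterus (n = 16), 65.9 ± 25.76 in heart and 63.53 ± 22.36 in lung, and 10.2 ± 2.727 in brain (n = 31). All 4 members therefore had uterus first, brain last and adrenal at rank 10 of 11. Because miR-143-3p fills so much of a uterus library, its own total bears on these values: with the 3 most abundant members left out of the total, the mean of miR-143-3p in uterus was 723550 and that of miR-145-5p was 6755 CPM of the rest.

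**Figure D1:**
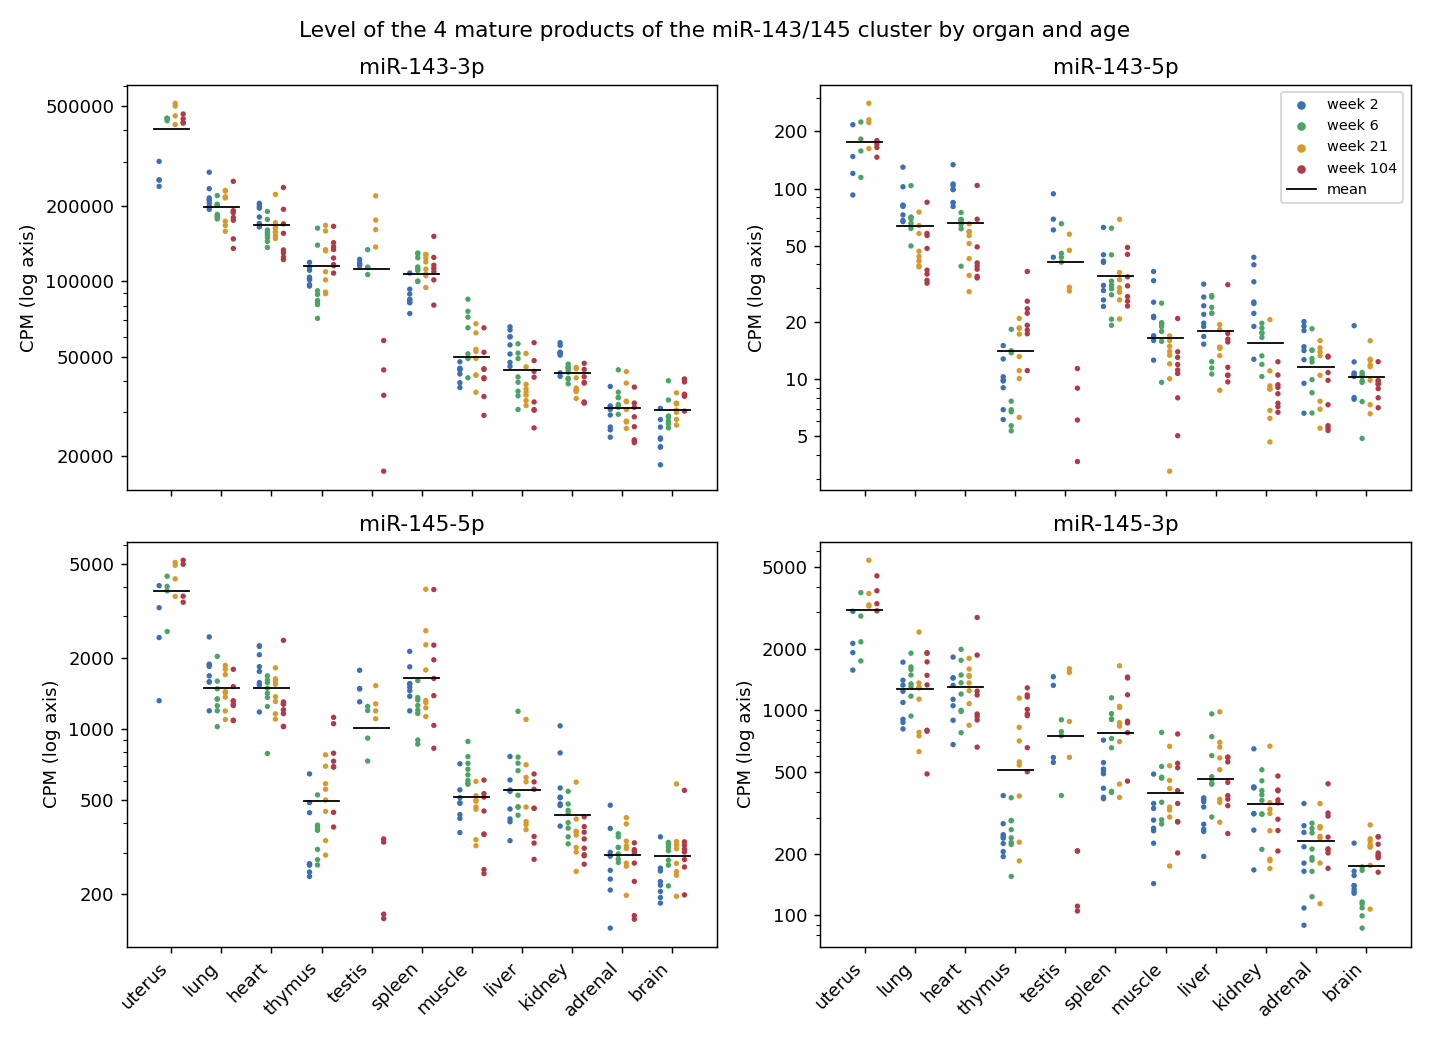
CPM of each member by organ on a log axis, 1 panel per member, with organs in the order of the mean of miR-143-3p; points are samples, coloured by age in weeks and set side by side from week 2 to week 104, and the bars are organ means. Uterus is the highest organ in each panel and brain the lowest by mean, and the testis samples spread the most.

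Organs were compared pairwise at each age with edgeR's quasi-likelihood test. A difference is said to be called when its adjusted p was below 0.05 and it was at least 2-fold. Of 220 pairs over the 4 ages, 134 were called for miR-143-3p, 137 for miR-143-5p, 130 for miR-145-5p and 135 for miR-145-3p. Over all miRNAs, 51.1% of such tests were called, so the number of differing pairs by itself does little to set the members apart. At a 4-fold threshold 73, 68, 63 and 74 pairs were called in the same order, against 33.3% of all tests. The direction was less usual. Uterus was called higher in 39 of 40 pairs for miR-143-3p and in 40 of 40 for each of the other members, where 24.1% of all such tests with uterus were called higher. With libraries scaled by total count these were 38, 38, 36 and 36 of 40 for miR-143-3p, miR-143-5p, miR-145-5p and miR-145-3p. Brain was called lower in 38, 40, 39 and 40 of 40 pairs in the same order of members, where 28.5% of all tests with brain were called lower. With total count scaling brain was called lower in 26, 23, 25 and 29 of 40.

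The pair that was not called for miR-143-3p was uterus against lung at week 2. The lung samples then had 193536 to 272296 CPM, with a median of 211364 (n = 8), and the 4 uterus samples 239059, 253553, 253852 and 300899. The groups overlapped, and the difference was 0.82 ± 0.15 on the log2 scale (edgeR, adjusted p = 1.64e-06), or 1.76-fold. Lung was also the closest organ at week 6, where uterus was 2.12 ± 0.17 higher on the log2 scale. At week 104 the closest organ was heart, 2.89 ± 0.22 below uterus on the log2 scale. The distance from uterus to its closest organ was thus smallest at week 2 for all 4 members.

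Over all ages in 1 joint fit, uterus lay above the mean of the other 10 organs by 3.32 ± 0.056 for miR-143-3p, 3.83 ± 0.064 for miR-143-5p, 3.40 ± 0.063 for miR-145-5p and 3.48 ± 0.081 for miR-145-3p (log2 fold change ± SE, edgeR, adjusted p at most 5.6e-115). These are 9.99-fold, 14.2-fold, 10.6-fold and 11.2-fold. Of all miRNAs, 16.2% were called higher in uterus. The size of the difference depended on the scaling, since the median of all miRNAs moved by -0.83 in this contrast when libraries were scaled by total count alone in place of TMM (trimmed mean of M values). Scaled by total count the members were 5.55-fold, 7.94-fold, 5.79-fold and 6.19-fold higher, in the same order, and all still passed the test.

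For lung the differences from the mean of the other organs were smaller: 1.13 ± 0.052, 1.09 ± 0.063, 0.81 ± 0.061 and 0.996 ± 0.077 on the log2 scale for miR-143-3p, miR-143-5p, miR-145-5p and miR-145-3p. miR-143-3p and miR-143-5p were called higher in lung, as were 17.4% of all miRNAs. The values for the arms of miR-145 missed the 2-fold threshold under TMM and were 2.09-fold and 2.38-fold under total count scaling.

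Neighbours in the order of mean CPM were tested next, to see which steps of the order are larger than the spread. For miR-143-3p, 8 of 10 neighbouring organs differed (adjusted p below 0.05 with no fold threshold), and 7 of 10 with total count scaling. When the members' neighbour pairs were tested over all miRNAs, 69.9% of the tests passed. These organs need not be neighbours in the order of another miRNA, so that share is not a like comparison. Lung and heart differed by 0.14 ± 0.077 (edgeR, adjusted p = 0.105), and by 0.25 ± 0.061 with total count scaling. Spleen and muscle differed by -0.05 ± 0.078 (adjusted p = 0.606), and by 1.11 ± 0.062 with total count scaling. Liver and kidney differed against the order of their CPM under TMM, by -0.49 ± 0.077, and by 0.03 ± 0.061 with total count scaling (edgeR, adjusted p = 0.848). For miR-143-5p, 8 of 10 neighbours differed under TMM and 3 under total count scaling, for miR-145-5p 8 and 4, and for miR-145-3p 6 and 5. For miR-145-5p spleen and lung differed against the order of their CPM, by -0.21 ± 0.088 (edgeR, adjusted p = 0.0263). With total count scaling they differed by 0.12 ± 0.099 (adjusted p = 0.294). The step from uterus to the next organ passed under both scalings for each member, at 1.00 to 1.45 on the log2 scale with total count scaling and 1.99 to 2.57 under TMM.

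The lowest step shows how far scaling matters. Adrenal and brain differed by 1.35 ± 0.079 for miR-143-3p under TMM and by 0.03 ± 0.061 under total count scaling (adjusted p = 0.631). The median TMM factor was 2.08 in brain libraries and 0.588 in uterus libraries. That brain was lower than adrenal is therefore a statement relative to the bulk of miRNAs, and the shares of the libraries taken by miR-143-3p in these organs were not distinguishable.

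Age was tested in each organ between weeks 2 and 6, 6 and 21, 21 and 104, and 2 and 104. Of 44 contrasts, 3 were called for miR-143-3p, 4 for miR-143-5p, 3 for miR-145-5p and 8 for miR-145-3p, where 18.1% of all such tests were called. Read against that background, the count of miR-145-3p is near it and the other 3 counts are below it. With no fold threshold 9, 9, 14 and 18 contrasts passed, against 29.6% of all tests. The 18 calls past both thresholds were 11 increases and 7 decreases under TMM, and 14 calls with 5 increases and 9 decreases under total count scaling. The change from week 2 to week 104 differed between organs for each member (edgeR F test, adjusted p = 5.29e-16 for miR-143-3p, 3.31e-15 for miR-143-5p, 1.69e-14 for miR-145-5p and 1.08e-09 for miR-145-3p), as it did for 86.0% of all miRNAs.

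Uterus and testis held 11 of these 18 calls. In uterus miR-143-3p was at 239059, 253553, 253852 and 300899 CPM at week 2. The 4 samples of week 6 had 437197, 446420, 446858 and 447047 CPM. Week 21 had 421929, 457293, 500245 and 512986, and week 104 had 427552, 430287, 445320 and 465038. Every sample from week 6 on lay above every sample of week 2, and the 3 later ages overlapped.

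The rise of miR-143-3p in uterus from week 2 to week 6 was 1.34 ± 0.21 (log2 fold change ± SE, edgeR, adjusted p = 7.57e-05; 26.1% of all miRNAs were called in this contrast). From week 2 to week 104 it was 1.75 ± 0.21 (adjusted p = 8.27e-07; 36.9% called). With total count scaling these were 0.76 in both contrasts, still past the adjusted p but under 2-fold. Between weeks 6 and 21 the difference was -0.02 ± 0.21, and between weeks 21 and 104 it was 0.43 ± 0.21 (adjusted p = 0.207).

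The other members were also higher in uterus at week 104 than at week 2. miR-145-5p had 1316, 2434, 3255 and 4035 CPM at week 2 and 3432, 3641, 4971 and 5168 at week 104, so the groups overlapped, and the change was 1.53 ± 0.30 (edgeR, adjusted p = 0.000204). miR-145-3p rose by 1.76 ± 0.24 and miR-143-5p by 1.20 ± 0.21 on the log2 scale. The median of all miRNAs moved by -0.91 in this contrast under total count scaling, which gave 0.64 for miR-145-5p, 0.77 for miR-145-3p and 0.20 for miR-143-5p, the last not past the test (adjusted p = 0.569). The rise of miR-143-5p is thus relative to the other miRNAs, and its share of the library was not distinguishable between these ages. From week 2 to week 6 the changes were 0.89 ± 0.29 for miR-145-5p, 0.89 ± 0.24 for miR-145-3p and 0.80 ± 0.21 for miR-143-5p (edgeR, adjusted p = 0.024, 0.00741 and 0.0072), each under 2-fold. Total count scaling gave 0.43, 0.28 and 0.24 for them, none past the test (edgeR, adjusted p = 0.215, 0.397 and 0.544).

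Markers of other cells also moved in uterus between weeks 2 and 104. Of 5 white cell miRNAs, 4 were called higher, among them miR-142-3p by 2.61 ± 0.32 and miR-223-3p by 1.68 ± 0.31 on the log2 scale. Their summed CPM was 513.6 to 1070 at week 2 and 851.5 to 1662 at week 104. Both endothelial miRNAs, 4 of 8 mesenchymal (median 1.15), 3 of 7 epithelial and 2 of 8 smooth muscle and vessel wall miRNAs (median 0.31) were also called higher, and 1 epithelial miRNA was lower. Between weeks 2 and 6, 4 of 5 white cell, 4 of 8 mesenchymal, 4 of 7 epithelial and 2 of 8 smooth muscle and vessel wall miRNAs were called higher, with 1 epithelial and 1 smooth muscle and vessel wall miRNA lower. Over all 616 miRNAs, 76 were called higher and 151 lower between weeks 2 and 104 (median -0.17). Between weeks 2 and 6 these were 54 and 107 (median -0.15). The liver miRNA miR-122-5p had 114.5 to 236.2 CPM in the uterus samples of week 2 and 0.6207 to 4.401 at week 104. The part of these in the values of the members was not tested.

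In testis the 4 members were lowest at week 104. miR-143-3p had 115132, 116763, 118571 and 122240 CPM at week 2, and 106316, 113345, 113805 and 133668 at week 6. At week 21 it had 136936, 160673, 175440 and 219212 CPM, and at week 104 it had 17451, 35065, 44273 and 57977. The samples of week 104 did not overlap with any younger testis sample.

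miR-145-5p in testis was at 1104 to 1524 CPM at week 21 and at 157.7, 164.6, 332.2 and 342.4 at week 104. miR-145-3p went from 589.9 to 1594 CPM at week 21 to 105.1 to 206.5 at week 104, and miR-143-5p from 29.0 to 57.59 to 3.693 to 11.36. In none of the 3 did the groups overlap.

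Scaling decides how large these falls were. From week 21 to week 104 in testis, miR-145-5p fell by 1.10 on the log2 scale (SE 0.19, edgeR, adjusted p = 9.45e-05), miR-145-3p by 1.57 (SE 0.34, adjusted p = 0.000727) and miR-143-5p by 1.21 (SE 0.26, adjusted p = 0.000623), where 43.0% of all miRNAs were called. miR-143-3p changed by -0.89 ± 0.29 (adjusted p = 0.0163), which is under 2-fold, and it did not pass the test without replicate 2 (-0.93), without replicate 4 (-0.41) or with the lane as a factor (-0.70). With total count scaling the changes were -2.16 for miR-143-3p, -2.45 for miR-143-5p, -2.35 for miR-145-5p and -2.87 for miR-145-3p, and the median of all miRNAs moved by -1.24.

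Between weeks 2 and 104 the difference in testis was -0.03 ± 0.29 for miR-143-3p under TMM (edgeR, adjusted p = 0.963) and -1.61 under total count scaling. miR-143-5p was called lower by this contrast at -1.62 ± 0.25, miR-145-5p at -1.07 ± 0.19 and miR-145-3p at -1.07 ± 0.33, beside 48.1% of all miRNAs. The value of miR-145-3p did not pass the test with DESeq2 (-0.77), without replicate 1 (-0.84) or without replicate 4 (-0.84). In this contrast the median of all miRNAs moved by -1.53 with the scaling. The direction of the change for miR-143-3p relative to the bulk of miRNAs was therefore not resolved, while its share of the miRNA counts in testis was lower at week 104.

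The testis libraries of week 104 also differed in other miRNAs that take much of the total. miR-34c-5p, a germ cell miRNA, had 417.9 to 491.9 CPM at week 2, 118131 to 151844 at week 6, 118679 to 141837 at week 21 and 40.63 to 1784 at week 104. The summed CPM of both listed germ cell miRNAs went from 141366 to 160516 at week 21 to 42.39 to 2065 at week 104, and both were called lower. miR-10b-5p had 80435 to 168384 CPM at week 21 and 507989 to 618704 at week 104. All 7 epithelial miRNAs of the marker list were called lower in testis between weeks 2 and 104, while all 5 white cell, both endothelial and 2 of 3 red cell miRNAs were called higher. Of the 8 smooth muscle and vessel wall miRNAs 4 were higher and 2 lower in that contrast, and of the 8 mesenchymal miRNAs 4 were higher and 3 lower. Over all 616 miRNAs, 93 were called higher and 203 lower there. Between weeks 21 and 104 in testis, 6 of the 8 smooth muscle and vessel wall miRNAs were called higher and 1 lower (median 1.32, against 0 over all miRNAs), and 3 of the 8 mesenchymal miRNAs were higher and 0 lower. The part of these changes in the values of the members was not tested.

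**Figure D2:**
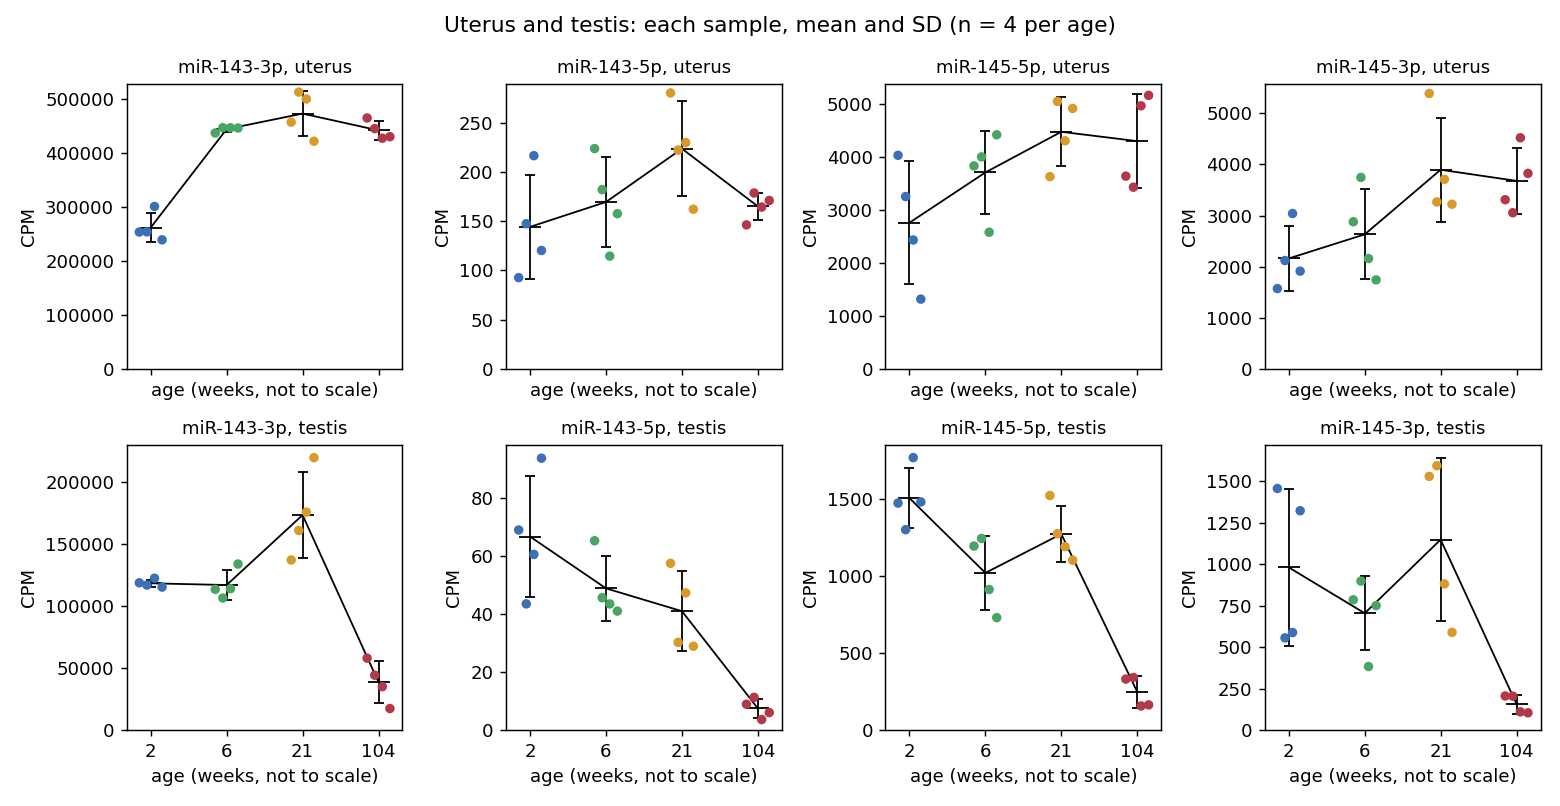
CPM of the 4 members in uterus (upper row) and testis (lower row) at 2, 6, 21 and 104 weeks on linear axes that start at 0; points are samples, n = 4 per age, and the lines and bars give the mean and SD. In uterus miR-143-3p steps up from 239059 to 300899 at week 2 to 437197 or more at week 6, and in testis the samples of week 104 are the lowest of each panel.

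The other 7 calls were spread over 5 organs, and 5 of them were miR-145-3p. In thymus miR-145-3p had 193.5, 240.2 and 383.8 CPM at week 2 (lowest, median and highest, n = 8), 154.9, 250.4 and 374.7 at week 6, 184.5, 550.5 and 1147 at week 21 and 501.6, 985.2 and 1286 at week 104. No thymus sample of week 104 was as low as a sample of week 2. The change was 1.60 ± 0.24 from week 2 to week 104 (edgeR, adjusted p = 4.27e-07; 44.2% called) and 1.17 ± 0.24 from week 6 to week 21 (6.49% called), and both passed with total count scaling, at 1.93 and 1.15. From week 2 to week 104 miR-145-5p also rose, by 0.84 ± 0.20, and miR-143-5p by 0.81 ± 0.22 (edgeR, adjusted p = 0.000584 and 0.00188), each under 2-fold. Total count scaling gave 1.09 and 1.125 for them (edgeR, adjusted p = 3.08e-05 and 0.000164), past 2-fold. miR-143-3p changed by 0.0071 ± 0.17, and by 0.30 with total count scaling, neither past the test. The thymus lists moved as well between weeks 2 and 104: all 3 red cell miRNAs, both endothelial miRNAs and 7 of 8 mesenchymal miRNAs were called higher, and the thymocyte miRNA miR-181a-5p was called lower at -3.03 on the log2 scale. Also higher were 4 of 7 epithelial and 2 of 8 smooth muscle and vessel wall miRNAs (median 0.97). Lower were 2 of 5 white cell, 2 of 4 neural and 2 of 7 striated muscle miRNAs. Of 2 germ cell miRNAs, 1 was higher and 1 lower, and the liver and the kidney and liver epithelium lists had no call. Over all 616 miRNAs, 117 were called higher and 155 lower in that contrast. The part of the listed miRNAs' cells in the values of the members was not tested.

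In spleen miR-145-3p was called higher at week 6 than at week 2 (1.02 ± 0.23; 16.9% called) and at week 104 than at week 2 (1.3 ± 0.24, edgeR, adjusted p = 5.88e-05; 26.0% called). With total count scaling these were 0.62 (edgeR, adjusted p = 0.0426), under 2-fold and so not called, and 1.05 (adjusted p = 0.00108), still called. Its CPM was 370.6, 497.9 and 715.3 at week 2 (n = 8) and 451.6, 884.6 and 1452 at week 104 (n = 7), so the groups overlapped. The week 2 spleen samples are those of low RNA integrity, and age and RNA integrity cannot be told apart in these contrasts. In muscle it was called higher at week 104 than at week 2 (1.43 ± 0.24; 48.7% called), although the CPM of 142.9, 278.8 and 488.5 at week 2 and of 201.6, 378.4 and 766.6 at week 104 overlapped widely. With total count scaling the muscle value was 0.51 (adjusted p = 0.0948), and the median of all miRNAs moved by -0.90 there.

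The remaining calls were miR-143-3p in brain and miR-143-5p in kidney. In brain miR-143-3p had 18511, 23547 and 31082 CPM at week 2 and 30307, 35261 and 40704 at week 104 (lowest, median and highest, each n = 8), a change of 1.005 ± 0.12 (edgeR, adjusted p = 5e-08; 24.7% called) that sat at the 2-fold threshold and was 0.58 with total count scaling. miR-143-5p in kidney had 12.7, 25.15 and 43.55 CPM at week 2 and 6.697, 8.712 and 12.33 at week 104 without overlap, a change of -1.35 ± 0.19 (adjusted p = 2.77e-07; 25.5% called). miR-143-3p in lung, where its level was second highest, had medians of 211364 CPM at week 2 and 183700 at week 104, and the difference was -0.0022 ± 0.16 under TMM and -0.26 under total count scaling, neither past the test.

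**Figure D3:**
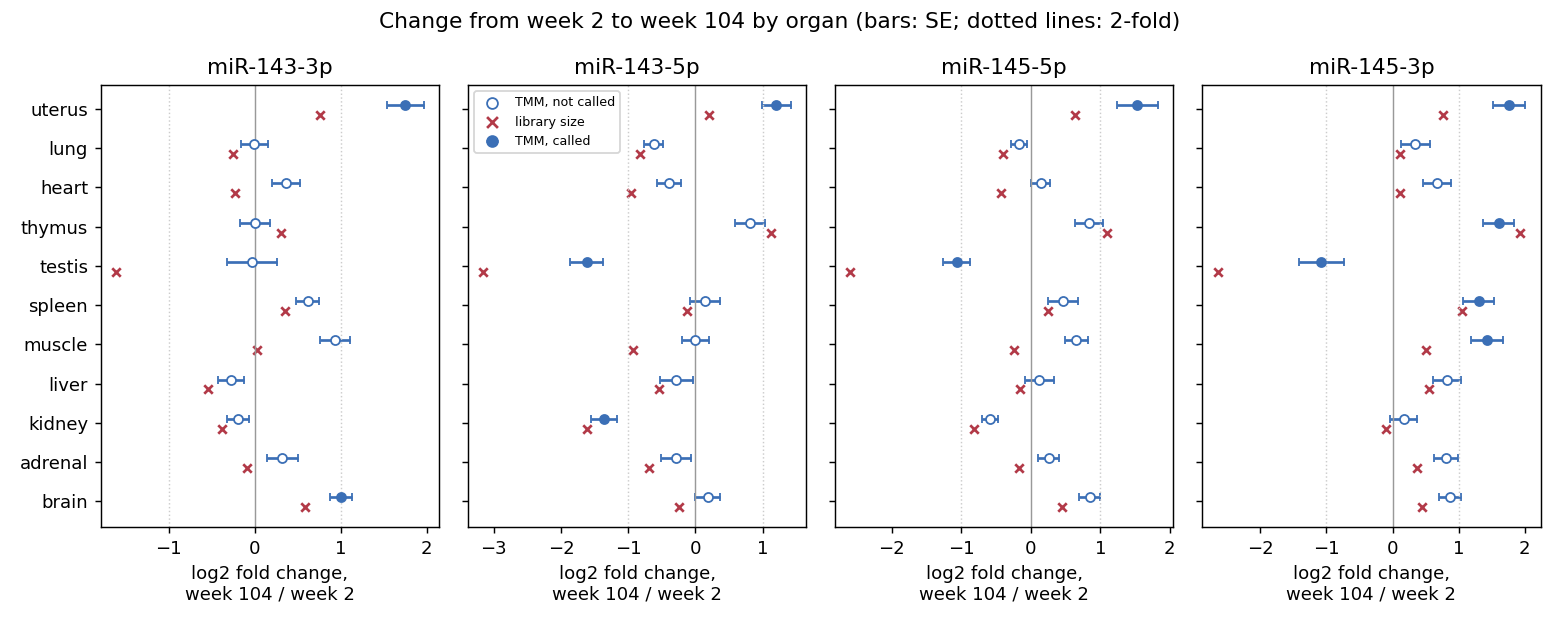
Log2 fold change from week 2 to week 104 for each organ, 1 panel per member; circles are the TMM fit with SE bars, filled where called, crosses are the same contrast with libraries scaled by total count, and dotted lines mark 2-fold. Uterus is to the right in all panels under TMM, and testis is the organ where the crosses lie farthest from the circles.

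Males and females were compared in the 9 organs that both sexes have, averaged over ages. Of 36 tests, 2 passed at an adjusted p below 0.05, both in adrenal, against 1.39% of all such tests and 5.03% in adrenal. miR-143-3p was higher in male adrenal, with 33886 CPM ± 5615 against 28451 ± 3926 (mean ± SD, each n = 16), a difference of 0.44 ± 0.13 (edgeR, adjusted p = 0.0481), or 1.35-fold. For miR-145-5p the values were 305.3 ± 41.5 in males and 278.4 ± 95.4 in females, a difference of 0.37 ± 0.11 (adjusted p = 0.0416). Neither passed with total count scaling, with the lane as a factor, or without replicate 2, 3 or 4, and miR-145-5p did not pass without replicate 1 either. Whether the change from week 2 to week 104 differed between sexes was tested in the same 9 organs, and none of the 36 tests passed with edgeR, 2 having an unadjusted p below 0.05, nor with DESeq2, with 1 below 0.05; 1.24% of all such tests passed.

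Ratios within a library do not depend on how libraries are scaled. The log2 ratio of miR-143-3p to miR-145-5p compares the 2 hairpins of the cluster and was computed per sample from the counts with 0.5 added. Its mean was highest in thymus at 7.95 ± 0.51 (SD, n = 32), a 248-fold excess of miR-143-3p, with a range from 6.68 to 8.69. Lung followed at 7.07 ± 0.35 (n = 32), testis at 6.87 ± 0.53 (n = 16), heart at 6.84 ± 0.38 and adrenal at 6.77 ± 0.33 (each n = 32). Uterus, with the highest level of both miRNAs, was in the middle of the order at 6.76 ± 0.41 (n = 16), a 109-fold excess. Brain, with the lowest level of both, had nearly the same ratio at 6.75 ± 0.43 (n = 31). Liver at 6.36 ± 0.65 (n = 32) and spleen at 6.12 ± 0.58 (n = 31), a 69.7-fold excess, were lowest.

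Thymus therefore stood apart at the upper end. Of its 32 samples, 19 lay above every sample of every other organ, the highest of which was a testis sample at 7.80. Thymus was higher than each of the 10 other organs by 0.88 to 1.83 on the log2 scale (two-sided permutation test within age, adjusted p = 3.44e-05 in each of the 10; the unadjusted 1e-05 is the smallest that 100000 permutations can give). With organs paired by replicate number, taken as the rat, the permutation test gave an adjusted p of at most 0.000858 in these 10 pairs. Of all 55 organ pairs, 31 differed; lung was higher than 8 organs, spleen lower than 9 and liver lower than 8. With that pairing, 28 of 54 pairs differed, and lung was then higher than 7 organs, spleen lower than 9 and liver lower than 6. Liver against testis (permutation test, adjusted p = 0.125), liver against uterus (0.0974) and lung against uterus (0.0556) no longer passed, and liver against kidney passed narrowly (0.05 after rounding). The differences of uterus and of brain from adrenal, heart, kidney, muscle and testis did not pass, and uterus and brain differed by 0.02 (adjusted p = 0.922).

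The thymus ratio was lower at later ages in its mean: 8.30 ± 0.48 at week 2, 8.08 ± 0.33 at week 6, 7.90 ± 0.39 at week 21 and 7.54 ± 0.54 at week 104 (each n = 8). The difference between weeks 2 and 104 was -0.76 and did not pass the correction over 44 contrasts (exact permutation test, p = 0.0121, adjusted p = 0.178). Of the 44 age contrasts, 1 passed. In spleen the ratio was 5.81 ± 0.25 at week 2 and 6.59 ± 0.34 at week 6 (each n = 8), and no week 6 sample was below the highest of week 2, a difference of 0.79 (exact permutation test, p = 0.000155, adjusted p = 0.00684). RNA integrity and age cannot be told apart in that contrast.

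The log2 ratio of miR-145-5p to miR-145-3p compares the arms of 1 hairpin. The means ran from 0.14 ± 0.67 in thymus (n = 32) to 1.10 ± 0.82 in spleen (n = 31), that is from 1.1-fold to 2.15-fold more of the 5p arm, with brain next to spleen at 0.74 ± 0.56 (n = 31). Of 55 organ pairs, 16 differed by the same permutation test; spleen was higher than 9 organs and brain higher than 7. The spleen mean includes the week 2 samples of low RNA integrity, at 1.68 ± 0.37 (n = 8), where the means of weeks 6, 21 and 104 were 0.73, 1.17 and 0.81. Without those samples 13 of 55 pairs differed. With organs paired by replicate number 14 of 54 did, and spleen was then higher than 8 organs and brain higher than 6. No age contrast passed with the exact permutation test (11 of 44 had an unadjusted p below 0.05), and 3 passed once lane means were removed.

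The ratio of the arms of miR-143 was added after the data had been seen and is given without a test. The log2 ratio of miR-143-3p to miR-143-5p was 13.1 ± 0.68 in thymus (n = 32), an 8802-fold excess of the 3p arm, and from 11.19 in uterus to 11.68 in lung in the other 10 organs. miR-143-5p had a mean of 13.98 CPM in thymus, so few reads lie behind that value. In thymus miR-143-3p was thus high relative to its partner arm as well as to miR-145-5p.

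**Figure D4:**
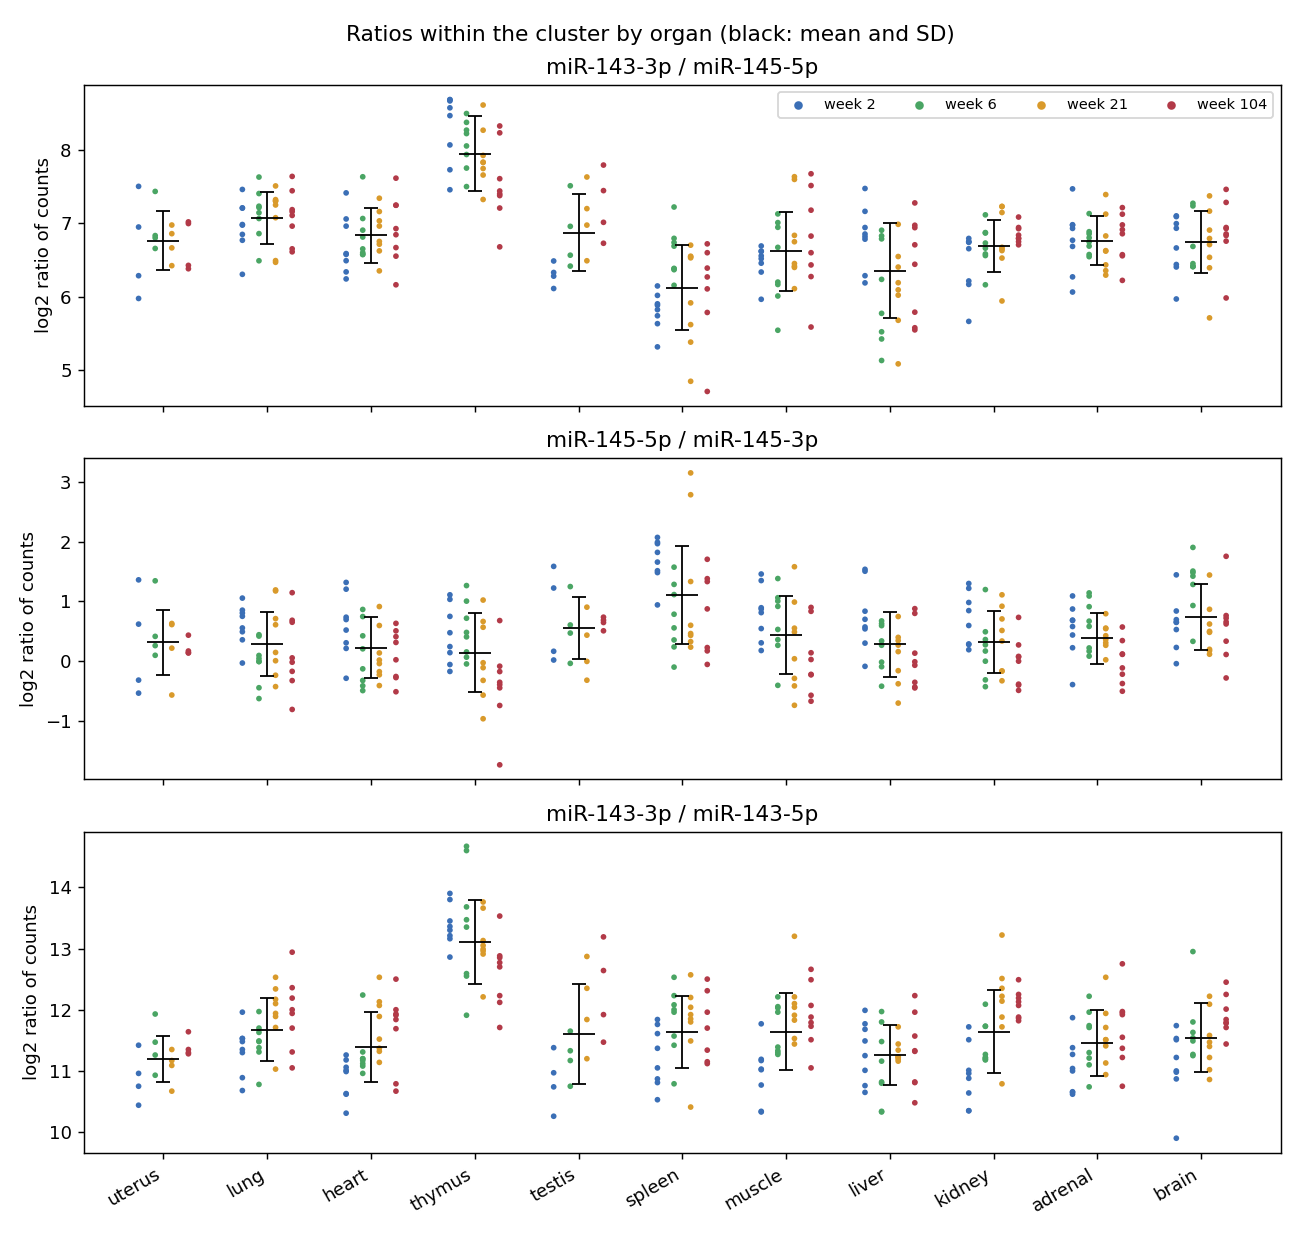
Log2 ratios of the members by organ, 1 panel per ratio; points are samples, coloured by age, and the black bars are the organ mean and SD. Thymus is the highest organ for miR-143-3p against miR-145-5p, at a mean of 7.95. Uterus and brain have nearly the same mean in that panel despite the distance between their levels.

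How the members varied together among replicates was looked at by taking each sample's deviation from its group of organ, sex and age in log2 CPM (all kept samples, 6 pairs of members, 100000 permutations within groups). Deviations of miR-143-5p and miR-145-3p went together, with Pearson's r = 0.665 (permutation p = 1e-05, the smallest possible, adjusted 6e-05) and Spearman's rho = 0.631 (p = 1e-05). For miR-145-5p and miR-145-3p, r was 0.295 (permutation p = 0.00011, adjusted 0.00024) and rho 0.229 (p = 0.00056), and for miR-143-5p and miR-145-5p r was 0.272 (permutation p = 0.00012, adjusted 0.00024) and rho 0.238 (p = 0.00038). Without the 2 samples farthest from the median these r were 0.648, 0.277 and 0.276, and with lane means removed 0.573, 0.35 and 0.286. The deviations of miR-143-3p had an r with those of the other 3 of 0.0905, 0.0157 and 0.0541, and none of these passed (permutation p = 0.227, 0.823 and 0.46). Samples of 1 rat and of 1 lane are not independent, which these p-values do not take into account.

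Part of the spread among replicates moved with the sequencing lane. Lanes held 11.9% of the variance within groups for miR-143-3p, 20.8% for miR-143-5p, 15.5% for miR-145-5p and 30.8% for miR-145-3p. The range of the lane means was 0.24, 0.63, 0.36 and 0.82 on the log2 scale in the same order. For the ratio of miR-145-5p to miR-145-3p it was 0.83, about as large as the distance of 0.96 between its highest and lowest organ, and removing lane means raised the number of organ pairs that differed from 16 to 22. For the ratio of miR-143-3p to miR-145-5p the range was 0.42, and 31 pairs differed with and without the lane means. Thymus remained higher in this ratio than all 10 organs with lane means removed.

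**Figure D5:**
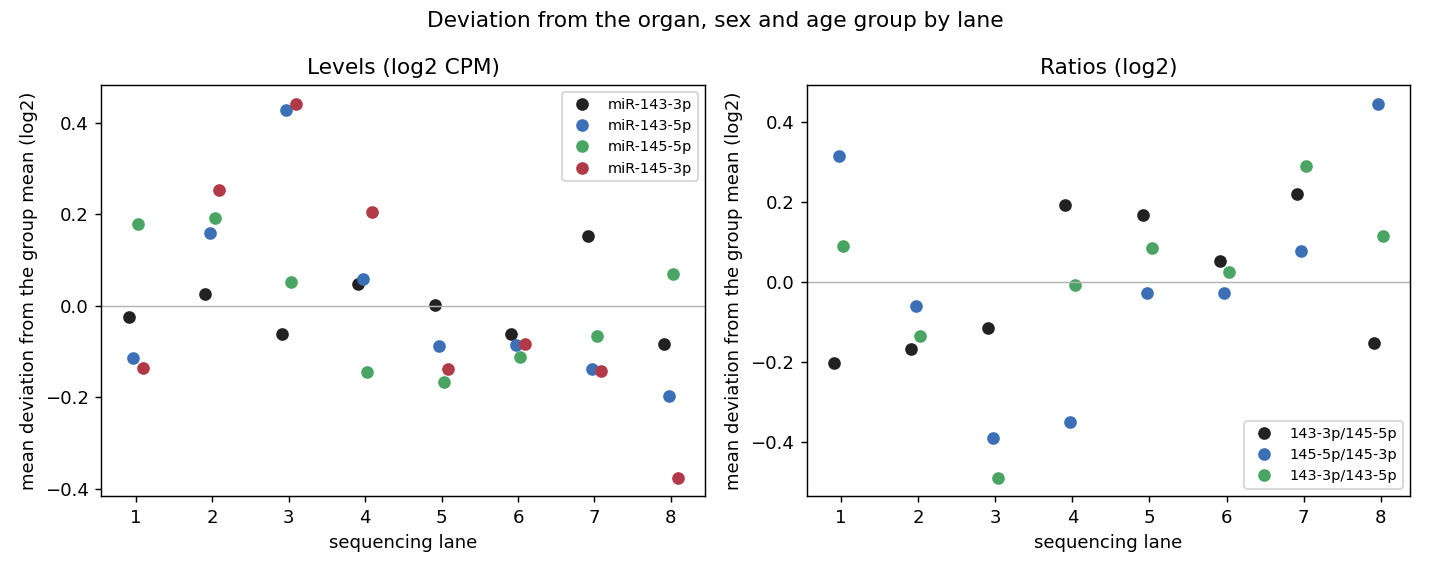
Mean deviation of the samples of each of the 8 lanes from their group of organ, sex and age on the log2 scale, for the levels of the 4 members (left) and for their ratios (right). The lane means of miR-145-3p span 0.82 and those of miR-143-3p span 0.24.

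The miRNAs whose pattern over the organs was most like that of the members were found by the Pearson correlation of log2(CPM + 1) over the 44 means of an organ at an age, among the 457 miRNAs whose counts averaged 10 or more. These means share lanes and rats, so the values are descriptions. For miR-143-3p the 5 highest were miR-199a-3p (r = 0.736), miR-199a-5p (0.695), miR-224-5p (0.688), miR-214-3p (0.661) and miR-452-5p (0.594). The same 5 came out for miR-145-5p, with 0.81, 0.779, 0.693, 0.771 and 0.609 in that order. The members were closer to each other, with r of 0.896 to 0.925 between miR-143-3p and the other 3. miR-199a and miR-214 are themselves a cluster known from mesenchymal cells, and their mean CPM was highest in uterus. There miR-199a-3p had 2665, 6472 and 11855 CPM (lowest, median and highest, n = 16), below the lowest miR-143-3p sample in each case. The mean of miR-224-5p was highest in lung and that of miR-452-5p in testis.

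Lists of marker miRNAs give the setting of the uterus values. Of 8 miRNAs listed for smooth muscle and vessel wall, the members left out, 3 were called higher in uterus than in the mean of the other organs and 0 lower, with a median log2 fold change of 0.60 against -0.22 over all 616 miRNAs, of which 100 were called higher and 56 lower. The 3 were miR-21-5p at 1.28 ± 0.061, miR-490-3p at 1.75 ± 0.10 and miR-490-5p at 2.61 ± 0.20. Mean CPM did not follow for each of them: miR-490-3p, a miRNA of visceral smooth muscle, had 21.0 CPM ± 10.1 in uterus (n = 16) and 178.1 ± 33.65 in brain (n = 31). Of 8 mesenchymal miRNAs, 4 were called higher and 0 lower, with a median of 0.65; these were miR-199a-3p at 3.13 ± 0.047, miR-199a-5p at 3.17 ± 0.059, miR-214-3p at 3.74 ± 0.052 and miR-152-3p at 1.54 ± 0.054. The members, at 3.32 to 3.83, lay near the miR-199a and miR-214 values of 3.13 to 3.74 and above miR-152-3p and the 3 smooth muscle miRNAs. As whole lists, the mesenchymal and the smooth muscle and vessel wall miRNAs had like medians, 0.65 and 0.60. miR-199a and miR-214 were also the miRNAs found above by their likeness to the members in these data.

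Other lists moved in uterus too. Of 7 epithelial miRNAs, 6 were called higher and 0 lower, with a median of 2.29. Of 7 striated muscle miRNAs 1 was called higher and 4 lower, of 5 white cell miRNAs 1 was higher, namely miR-223-3p at 1.11 ± 0.085, and all 3 red cell miRNAs, 2 of 4 neural miRNAs and both miRNAs of kidney and liver epithelium were lower. The endothelial and germ cell lists, of 2 miRNAs each, and the single liver and thymocyte miRNAs had no call. In lung 5 of 8 smooth muscle and vessel wall miRNAs were called higher (median 1.05), together with all 7 epithelial, both endothelial and 1 of 8 mesenchymal miRNAs, where the median over all miRNAs was -0.31. Also higher in lung were 5 of 7 striated muscle (median 1.63), both germ cell (median 4.11), 2 of 3 red cell and 1 of 5 white cell miRNAs, all 4 neural miRNAs were lower, and the kidney and liver epithelium, liver and thymocyte lists had no call. The part of any of these cells in the level of the members was not tested.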

How the data were processed

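Small RNA of 320 organ samples was measured by sequencing. Libraries were made with the TruSeq Small RNA kit from miRNeasy RNA of ground organ tissue. The authors trimmed reads with fastp 0.23.2, kept those of 16 to 35 nt, aligned them to miRBase with Bowtie 1.3.1 and deposited raw counts per miRNA, without normalization and without miRNAs below 1 count per library on average. PCR copies were not marked, so counts are reads, not molecules. Sequencing lanes were read from the study's sample table.

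The counts were used as deposited. Organs, ages and sexes were compared with edgeR 4.0.16 (quasi-likelihood, TMM, R 4.3.3) over all 616 rows, with Benjamini-Hochberg adjustment over the miRNAs of a contrast; organ pairs in 1 fit per age, age and sex in 1 fit per organ, and uterus and lung against the rest in 1 joint fit of 80 groups. Calls need an adjusted p under 0.05 and, except for sex and neighbouring organs, 2-fold. Ratios were compared by two-sided permutation tests in Python 3.11.15 with NumPy 2.4.6. The fits were tested on simulated data. Alternatives were total count scaling, DESeq2 1.42.0, all 320 samples, a filter at a mean count of 10, the lane as a factor, a replicate block and each replicate left out. Library totals of 315550 to 10571766 limit the precision of miR-143-5p most.

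Replicate numbers were taken to mark rats within a sex and age, since each rat gave 10 organs, so they would pair organs of an age and not ages or sexes. The labels do not state that a number is the same rat in each organ. Deviations of libraries with the same number in other organs had a median correlation of 0.00761, against -0.00589 for other numbers.

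Rows were members by name; miR-143-5p meets that rule although a list of 3 members made beforehand lacked it. Other miRNAs were named by a fixed rule: the 5 nearest in pattern to miR-143-3p and to miR-145-5p, and at most 4 of each marker list; miR-10b-5p was named after its values were seen. The members and lists were chosen with earlier results of these data known. miRNA sequences and coordinates are RefSeq's on GRCr8.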

Additional observations from a re-analysis of the deposited data

Results flagged for a closer look

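Within groups of 4, 7 or 8 samples of an organ and age, single samples that lay far from the rest by Dixon's test were looked for in all 176 groups of the 4 members. Chance alone gives about 1 in 20, or 8.8 of 176, and 9 were found.

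For miR-143-3p, a heart sample of week 21 (male, replicate 4) had 222089 CPM where the other 7 had 148054 to 171090. A uterus sample of week 6 (replicate 1) had 437197 CPM where the others had 446420 to 447047, a small gap in a very tight group. For miR-145-5p, a heart sample of week 6 (female, replicate 1) had 786.8 CPM beside 1244 to 1676, and a heart sample of week 104 (male, replicate 3) had 2368 beside 1022 to 1300. For miR-145-3p, a brain sample of week 2 (male, replicate 4) had 225.0 CPM beside 128.2 to 164.3.

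The remaining 4 concern miR-143-5p, the member with the fewest counts. A heart sample of week 6 (male, replicate 1) had 39.12 CPM beside 61.51 to 74.87, and a liver sample of week 21 (male, replicate 2) had 8.729 beside 13.27 to 19.33. A muscle sample of week 21 (male, replicate 3) had 3.285 CPM beside 10.04 to 16.85, and a spleen sample of week 21 (male, replicate 1) had 68.94 beside 20.69 to 36.25.

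The change from week 2 to week 104 differed between organs for each member, by an F test over organs in edgeR (adjusted p = 5.29e-16 for miR-143-3p, 3.31e-15 for miR-143-5p, 1.69e-14 for miR-145-5p and 1.08e-09 for miR-145-3p). The same held for 86.0% of all miRNAs.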

How the results depend on the processing

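Scaling and the fold threshold changed counts of calls. At 4-fold the organ pairs called were 73, 68, 63 and 74 for miR-143-3p, miR-143-5p, miR-145-5p and miR-145-3p, and with no fold threshold the age contrasts passing were 9, 9, 14 and 18. With total count scaling, miR-145-3p had 5 age calls in place of 8, and the neighbouring organs that differed were 3 for miR-143-5p and 4 for miR-145-5p (an alternative added after the data were seen). The change of miR-145-5p in muscle between weeks 2 and 104 was 0.66 under TMM (edgeR, adjusted p = 0.000747). With total count scaling it was -0.24 and did not pass (edgeR, adjusted p = 0.229). Sex calls of miR-143-3p and miR-145-5p were 0 with total count scaling or the lane as a factor. With the 3 most abundant members left out of the total, mean CPM was 202729 in heart, 250232 in lung and 723550 in uterus for miR-143-3p, 310.3 in uterus for miR-143-5p, 1873 in lung and 6755 in uterus for miR-145-5p, and 5490 in uterus for miR-145-3p.

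Leaving out each replicate number in turn gave 0 to 1 sex calls for miR-143-3p and 0 to 0 for miR-145-5p, 2 to 5 age calls for miR-145-5p, 10 to 17 organ pairs for the ratio of miR-145-5p to miR-145-3p and 0 to 2 age contrasts for each ratio; with 6 against 6 samples a permutation p cannot go below 0.00216, so the spleen contrast could not pass by itself. With a male thymus and a female brain library of week 104 left out, which stand apart in miR-181a-5p and in miRNA share, 2 age contrasts of the ratio of miR-145-5p to miR-145-3p passed, and with lane means removed 3, both chosen after seeing the data. For the replicate block, the age contrasts of the ratio of miR-143-3p to miR-145-5p went from 1 to 0 (spleen, weeks 2 and 6, permutation p = 0.00154, the smallest that the block allows, adjusted p = 0.0679); the numbers pair no ages. Of 52 age and sex differences of the members that passed the adjusted p, 51 passed with the block, 47 with DESeq2, 40 with the lane as a factor and 33 with total count scaling. Pairing organs by replicate number gave 28 of 54 organ pairs for the ratio of miR-143-3p to miR-145-5p and 14 of 54 for the arms of miR-145. Leaving out the 8 spleen samples of week 2 gave 31 and 13 of 55. Where no cause is named here, the cause was not tested.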

Other observations

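Both removed libraries are given as values only. The one named as brain, of a 6-week male, had 84183 CPM of miR-143-3p, where the 31 kept brain samples had 18511 to 40704, and 905.3 CPM of miR-145-3p, where they had 86.7 to 276.2. Its log2 ratio of miR-143-3p to miR-145-5p was 6.75, beside the brain mean of 6.75 and the uterus mean of 6.76, so this ratio cannot tell these organs apart. The one named as spleen, of a 104-week female, had 127824 CPM of miR-143-3p, inside the range of the 31 kept spleen samples, 74326 to 151095, and 66.15 CPM of miR-143-5p, near the top of their range of 19.16 to 68.94.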
